A study of Mus musculus with 10 samples.

Results

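The aminoacyl-tRNA synthetases are the enzymes that load each tRNA with its amino acid. The 36 genes described here were found by matching a list of symbols to the Ensembl identifiers of the deposited count table, which held 22165 identifiers. They comprise 20 cytosolic enzymes and 16 mitochondrial enzymes, whose symbols end in 2, and all 36 passed the filter on low counts, as did 11614 genes in all. Gars and Kars also supply the mitochondrial form of their enzyme and were counted as cytosolic.

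The cells were peritoneal cavity macrophages of C57BL/6 mice, sorted on CD64, ICAM-2 and CD115. Polyadenylated RNA was sequenced in 4 groups. The KO IL-4 group (3 libraries) came from mice with LysM-Cre and a floxed allele, injected with IL-4 bound to an anti-IL-4 antibody, and the KO basal group (2 libraries) from mice of that genotype injected with saline. The WT IL-4 group (3 libraries) and the WT basal group (2 libraries) received the same injections, and cells were lavaged 36 hours later in all groups. The treatment notes give the WT mice as floxed without Cre, while the growth notes call them WT. LysM-Cre is a Cre recombinase placed in the Lyz2 locus and active in myeloid cells, so the genotypes also differ in whether Cre was carried at all. The labels give no age. Nothing in them states that replicates are different animals, and a p therefore reflects only how far these samples spread, which may be technical. In bulk RNA, fewer cells of a type and less RNA per cell cannot be told apart.

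Charging of tRNA is the step that fixes the genetic code, and the cytosol and the mitochondrion each run their own set of enzymes, all encoded in the nucleus and mostly by separate genes. Several cytosolic enzymes sit together in the multisynthetase complex, held by the scaffold proteins AIMP1, AIMP2 and AIMP3 (the Eef1e1 product). When amino acids run short, uncharged tRNA activates the kinase GCN2, and the transcription factor ATF4 then induces amino acid transporters, biosynthetic enzymes and many cytosolic synthetases.

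Counted reads ranged from 8762403 to 15024073 per library. Lyz2, which carries the Cre, had 2664 and 9675 CPM (counts scaled to library size) in KO basal libraries, against 23600 and 21903 CPM in WT basal libraries (log2 -1.88 ± 0.42, adjusted p = 0.0249, edgeR). It had 4096, 3504 and 2845 CPM in KO IL-4 libraries, against 7046, 5912 and 6457 CPM in WT IL-4 libraries, a difference that missed the threshold (log2 -0.89 ± 0.34, adjusted p = 0.249). The macrophage genes Adgre1, Csf1r, Gata6, Timd4 and Icam2 were present in every group. The summed level of 12 B cell markers was 1688 to 2038 CPM in KO basal libraries, against 258 to 436 CPM in WT basal libraries, and 683 to 754 CPM in KO IL-4 libraries, against 618 to 721 CPM in WT IL-4 libraries. Sums of the 8 mast cell markers (186 to 313 CPM, against 82.5 to 132 CPM), the 8 T and NK cell markers found (96.8 to 98.2 CPM, against 21.2 to 38.2 CPM) and the 8 monocyte and dendritic cell markers (626 to 947 CPM, against 173 to 308 CPM) were also higher in KO basal than in WT basal libraries. Most of the T and NK sum was Cd2, at a mean of 83.4 CPM in KO basal and 20.3 CPM in WT basal libraries. Of the 7 tested, 6 were higher in KO basal, only Cd2 was called, and Cd3g was lower (4.40 against 5.96 CPM). Hdc, most of the mast cell sum in WT basal libraries, was lower in KO basal (41.7 against 79.6 CPM). Every other mast cell marker was higher. Cd74 was most of the monocyte and dendritic cell sum in KO basal libraries (447 CPM, against 97.3 CPM in WT basal). Cd74, Napsa and Cd209a were called, Ccr2 was not (log2 0.56, adjusted p = 0.364, edgeR), and Zbtb46 was lower (1.18 against 2.11 CPM). Among mesothelial and eosinophil markers, Msln, Upk3b, Krt19, Wt1, Prg2, Epx and Ear6 were at 0 in all 10 libraries. Others were found at low levels. The 5 eosinophil markers summed to 5.72 to 6.16 CPM in KO basal libraries, against 1.04 to 3.17 CPM in WT basal libraries. Ccr3 among them was at log2 1.69 between basal genotypes and missed the threshold (adjusted p = 0.275, edgeR). The 8 mesothelial and fibroblast markers summed to at most 4.06 CPM in any library.

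Cytosolic enzymes were present at higher levels than mitochondrial ones. On the scale of CPM per kilobase of principal transcript, averaged over the 10 libraries, the median was 14.1 for the 20 cytosolic enzymes and 3.35 for the 16 mitochondrial ones. Hars, the histidine enzyme, stood highest at 82.4 CPM per kb, followed by Nars (asparagine) at 62.2, Eprs (glutamate and proline, in 1 protein) at 55.4 and Sars (serine) at 54.2. The 12 highest positions were all cytosolic and the 8 lowest all mitochondrial, ending with Mars2 (methionine) at 0.334 CPM per kb. With the length of all annotated exons in place of the principal transcript, a choice compared after the values were seen, the medians were 8.36 and 1.59 CPM per kb and the 10 highest positions were cytosolic. Mars2 was lowest by both lengths, which for it are the same 11294 bases. Without division by length, its median of 4.21 CPM was above those of Aars2 (1.68), Pars2 (1.73), Sars2 (3.17) and Yars2 (4.19).

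**Figure D1:**
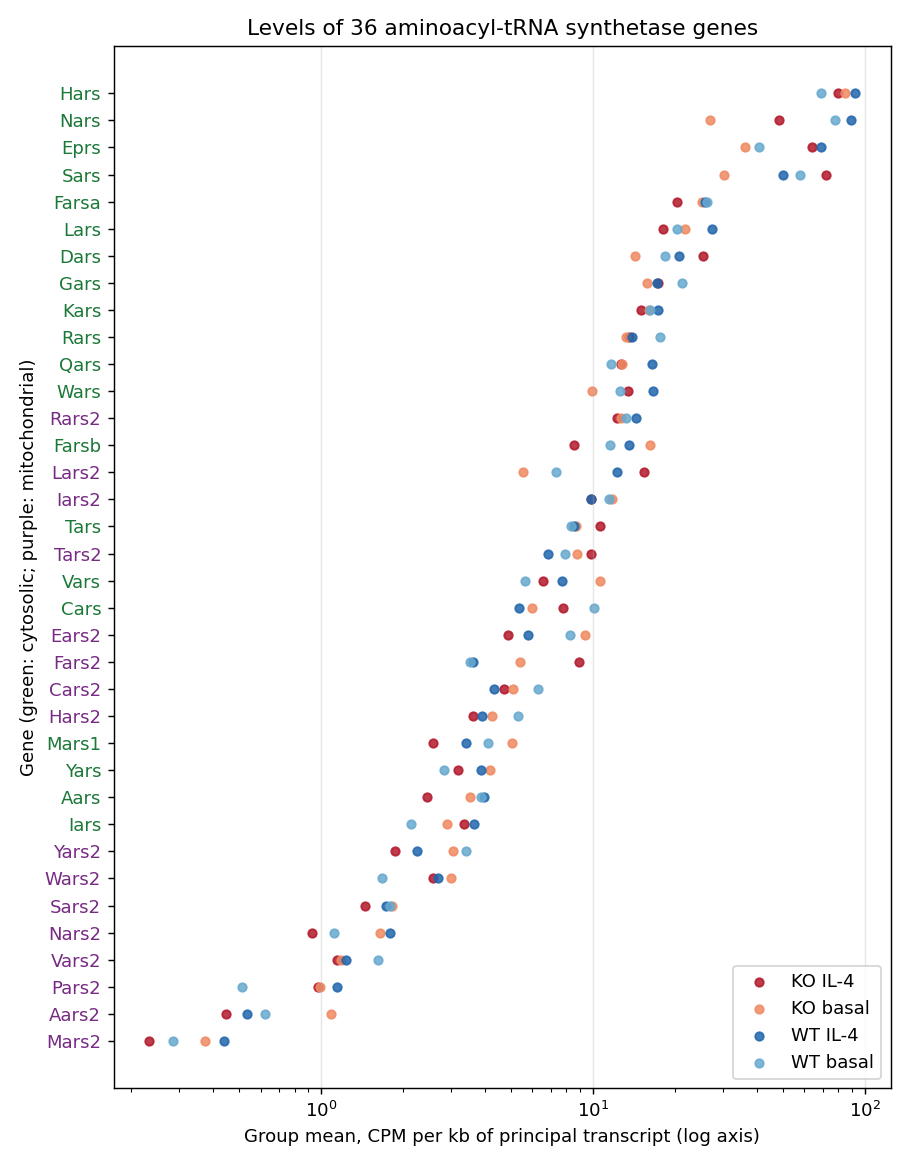
Mean level of the 36 synthetase genes in each group, in CPM per kb of principal transcript on a log axis, ordered by the mean over the 10 libraries; green names are cytosolic enzymes and purple names mitochondrial ones. The cytosolic enzymes fill the 12 highest positions, led by Hars at 82.4 CPM per kb, and Mars2 is lowest at 0.334 CPM per kb.

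The 16 mitochondrial enzymes formed 17 pairs with the cytosolic enzyme or enzyme subunit for the same amino acid, a pairing drawn up after the values were seen. By principal transcript, the cytosolic gene was higher per kb in 16 of the 17 pairs, with a median ratio of 5.35. The widest ratio by that length was 59.0, between Eprs and Pars2, the mitochondrial proline enzyme, and Nars stood 45.3 times above Nars2. The widest pair depended on the length used. By all exons Eprs was at 15.01 and Pars2 at 0.665 CPM per kb. Nars was at 39.2 and Nars2 at 0.744 CPM per kb, a wider ratio than that of Eprs over Pars2. Arginine and threonine enzymes were near parity by principal transcript, with ratios of 1.09 for Rars over Rars2 and 1.09 for Tars over Tars2. By all exons only the arginine pair stayed near parity (9.43 and 8.91 CPM per kb), with Tars at 6.20 and Tars2 at 2.89 CPM per kb. The exception was isoleucine, with a ratio of 0.296 for Iars over Iars2. Iars shares 1656 bases at 96.0% identity with the pseudogene Gm4849, and Iars2 shares 2034 exonic bases with Rab3gap2 on the other strand, so the level of Iars is uncertain where reads map to either locus, and that of Iars2 where counting ignored strand.

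Promoter sequence was available for 27 of the 36 genes in the RefSeq table (GRCm38.p6), as 250 bases before and 50 after the start site. The 9 genes without a promoter there were Cars, Hars, Hars2, Lars, Nars, Pars2, Rars, Vars and Wars, and they were not searched. Both strands were searched for 7 patterns, and the matches below were chosen for display after all 7 had been seen. TTGCATCA, the core of the amino-acid response element bound by ATF4 with C/EBP partners, was found in 4 of 27 (14.8%), against 1.03% of 27025 genes. All 4 were among the 13 cytosolic enzymes with a promoter, and none among the 14 mitochondrial ones. They are the alanine, isoleucine, threonine and tyrosine enzymes, and their stretches are shown, with the element in capitals, because ATF4 acts through it in the amino-acid response.
Aars, chr8:111033706-111033761, plus strand: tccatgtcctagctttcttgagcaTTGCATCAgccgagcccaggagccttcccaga
Iars, chr13:49682113-49682144, plus strand: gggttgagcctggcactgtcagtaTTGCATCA
Tars, chr15:11399644-11399697, minus strand: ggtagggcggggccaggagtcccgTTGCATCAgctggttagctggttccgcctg
Yars, chr4:129189882-129189917, plus strand: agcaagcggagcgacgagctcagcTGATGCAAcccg
In Yars the element lies on the other strand and reads TGATGCAA. Its first base lay at -112 from the start site in Aars, at -15 in Tars, and at 8 and 4 after the RefSeq start site in Iars and Yars.

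The other 6 patterns gave the following shares. TGATGNAA, which overlaps the first pattern, was in 5 of 27 (Gars in addition), against 4.51% of genes, and TTGCNTCA, which also overlaps it, was in the same 4 genes, against 4.22%. CACGTG, the E-box, was in 5 of 27, against 8.09%. CCGGAAG, an ETS site, was in 9 of 27, against 9.93%, and ATTGG, the reverse complement of the CCAAT box, in 13 of 27, against 41.1%. TGACGTCA was in 0 of 27, against 2.03%. A match is a run of letters and was not shown to be bound.

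None of the 4 genes with the element passed the test in any of the 5 comparisons. Aars had 13.6, 14.8 and 14.02 CPM in KO IL-4 libraries, 17.2 and 23.6 CPM in KO basal libraries, 24.9, 21.9 and 21.9 CPM in WT IL-4 libraries, and 23.3 and 21.3 CPM in WT basal libraries. Its KO IL-4 libraries lay below all others, with log2 -0.69 ± 0.23 between genotypes after IL-4 (adjusted p = 0.172). Iars was at log2 -0.12 ± 0.25, Tars at 0.31 ± 0.28 and Yars at -0.29 ± 0.30 in that comparison, so the 4 genes did not share a sign. Aars also shares 1326 identical bases with Exosc6, which is outside the count table.

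After IL-4, none of the 36 genes differed between KO and WT macrophages past the threshold of an adjusted p of 0.05 (edgeR), against 0.827% of all genes tested. DESeq2 also called 0, and 6 had an unadjusted p under 0.05 in edgeR, which is 16.7% of the 36 against 14.4% of all genes. The median fold change was log2 -0.22 over the cytosolic enzymes, 15 of 20 of them negative, and -0.16 over the mitochondrial ones, 11 of 16 negative, with a median of 0.02 over all genes tested. The libraries of the genotypes did not overlap for 3 genes higher in KO and 6 lower, against 9.57% and 10.7% of all genes. Neutrophil markers moved with this comparison, at a sum of 24.8 to 38.5 CPM in KO IL-4 libraries, against 95.8 to 108 CPM in WT IL-4 libraries, with 3 of 6 tested called lower in KO (Mmp8, S100a8 and S100a9), and their part in it was not tested.

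Nars, the asparagine enzyme, had the smallest p of that comparison. It had 114, 148 and 136 CPM in KO IL-4 libraries, against 177, 195 and 361 CPM in WT IL-4 libraries. All KO IL-4 libraries were below all WT IL-4 libraries, which themselves spread widely (log2 -0.88 ± 0.26, adjusted p = 0.127). Fars2, the mitochondrial phenylalanine enzyme, was at 31.3, 12.7 and 12.6 CPM in KO IL-4 libraries, against 7.61, 10.04 and 5.46 CPM in WT IL-4 libraries. The KO IL-4 libraries were the higher ones, 1 of them far above the other 2 (log2 1.28 ± 0.40, adjusted p = 0.158). Fars2 shares 616 exonic bases with Lyrm4 and Nrn1 on the other strand. Farsb, the beta subunit of the cytosolic phenylalanine enzyme, stood at 13.9, 16.2 and 22.03 CPM in KO IL-4 libraries, against 33.9, 26.7 and 22.5 CPM in WT IL-4 libraries (log2 -0.67 ± 0.27, adjusted p = 0.271), and shares 248 exonic bases with Sgpp2. The phenylalanine genes thus had fold changes of opposite sign, neither past the threshold.

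Under basal conditions 1 of the 36 genes was called between genotypes, lower in KO, and 0 were called higher, against 4.14% of all genes tested (2.61% higher and 1.53% lower). Nars (ENSMUSG00000024587, chromosome 18, 64499647 to 64516652, minus strand, mm10 with GENCODE M21) had 69.6 and 78.5 CPM in KO basal libraries, against 250 and 178 CPM in WT basal libraries. Both KO libraries were far below both WT libraries, 2.89-fold on the fitted scale (log2 -1.53 ± 0.32, adjusted p = 0.0136, edgeR). The call was kept in 7 of 10 fits that left out 1 library. It was lost without KO basal replicate 1 (adjusted p = 0.122), KO basal replicate 2 (0.0777) or WT basal replicate 1 (0.0740). B cell, mast cell, T and NK cell and monocyte marker sums moved with this comparison, as given above. All 6 neutrophil markers tested were also higher in KO basal, with 0 called. Their sums overlapped, at 40.1 to 63.2 CPM in KO basal and 15.2 to 41.2 CPM in WT basal libraries. The part of all these markers in the comparison was not tested.

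The other 35 genes did not pass in edgeR, and DESeq2 called 1 higher and 1 lower among the 36. The median was log2 -0.03 over the cytosolic enzymes and 0.09 over the mitochondrial ones, against -0.02 over all genes. In all, 3 of 36 had an unadjusted p under 0.05, against 17.7% of all genes, and the libraries did not overlap for 6 higher and 4 lower, against 23.7% and 24.5% of all genes. Vars, the valine enzyme, had 43.4 and 44.7 CPM in KO basal libraries, against 24.9 and 21.5 CPM in WT basal libraries (log2 0.92 ± 0.26, adjusted p = 0.0638). It was called in DESeq2 (adjusted p = 0.0119) and with library totals in edgeR (0.0380). Sars had 119 and 98.0 CPM in KO basal libraries, against 169 and 245 CPM in WT basal libraries (log2 -0.93 ± 0.43, adjusted p = 0.277). Vars was higher and Sars lower in both KO libraries than in both WT libraries.

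In KO macrophages, IL-4 raised 1 of the 36 genes past the threshold and lowered 0, against 7.6% of all genes tested (4.09% higher and 3.51% lower). DESeq2 called 3 higher and 1 lower. Lars2 (ENSMUSG00000035202, chromosome 9, 123366927 to 123462666, plus strand), the mitochondrial leucine enzyme, had 55.0, 64.0 and 61.0 CPM in KO IL-4 libraries, against 24.3 and 18.9 CPM in KO basal libraries. The 3 IL-4 libraries lay close together and well above both basal ones, 2.78-fold on the fitted scale (log2 1.47 ± 0.26, adjusted p = 0.0024, edgeR). Without KO basal replicate 2 the adjusted p was 0.0574, and the call was kept in the other 9 fits that left out 1 library. Markers of other cells moved with this comparison, and their part in it was not tested. The B cell sum was 683 to 754 CPM in KO IL-4 libraries, against 1688 to 2038 CPM in KO basal libraries (10 of 12 called lower). The mast cell sum was 35.7 to 44.1 CPM in KO IL-4 libraries, against 186 to 313 CPM in KO basal libraries (6 of 8 called lower). Hdc was most of that sum in KO IL-4 libraries and hardly moved (mean 39.01 CPM, against 41.7 CPM in KO basal, log2 -0.10 ± 0.31). Each other mast cell marker had a mean of at most 0.762 CPM in KO IL-4 libraries (Kit). Their means in KO basal libraries were all higher, up to 61.8 CPM (Cma1). The T and NK cell sum was 22.3 to 27.1 CPM in KO IL-4 libraries, against 96.8 to 98.2 CPM in KO basal libraries. It was again mostly Cd2, the only 1 of 7 tested called lower. The monocyte and dendritic cell sum was 1006 to 1192 CPM in KO IL-4 libraries, against 626 to 947 CPM in KO basal libraries. Its markers did not move together, with Ccr2 called higher (log2 2.08), Napsa called lower (log2 -2.05) and 4 of 7 tested negative. The macrophage gene Fcgr1 was called lower.

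In WT macrophages Lars2 had 49.9, 49.5 and 44.6 CPM in IL-4 libraries, against 33.4 and 23.4 CPM in basal libraries. Here too the IL-4 libraries were all above the basal ones, and the difference missed the threshold (log2 0.76 ± 0.25, adjusted p = 0.0836). The difference between the IL-4 effects was log2 0.72 ± 0.35 (adjusted p = 0.340), so an unequal response of Lars2 in the genotypes was not shown. Lars, its cytosolic counterpart, did not pass in any comparison.

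**Figure D2:**
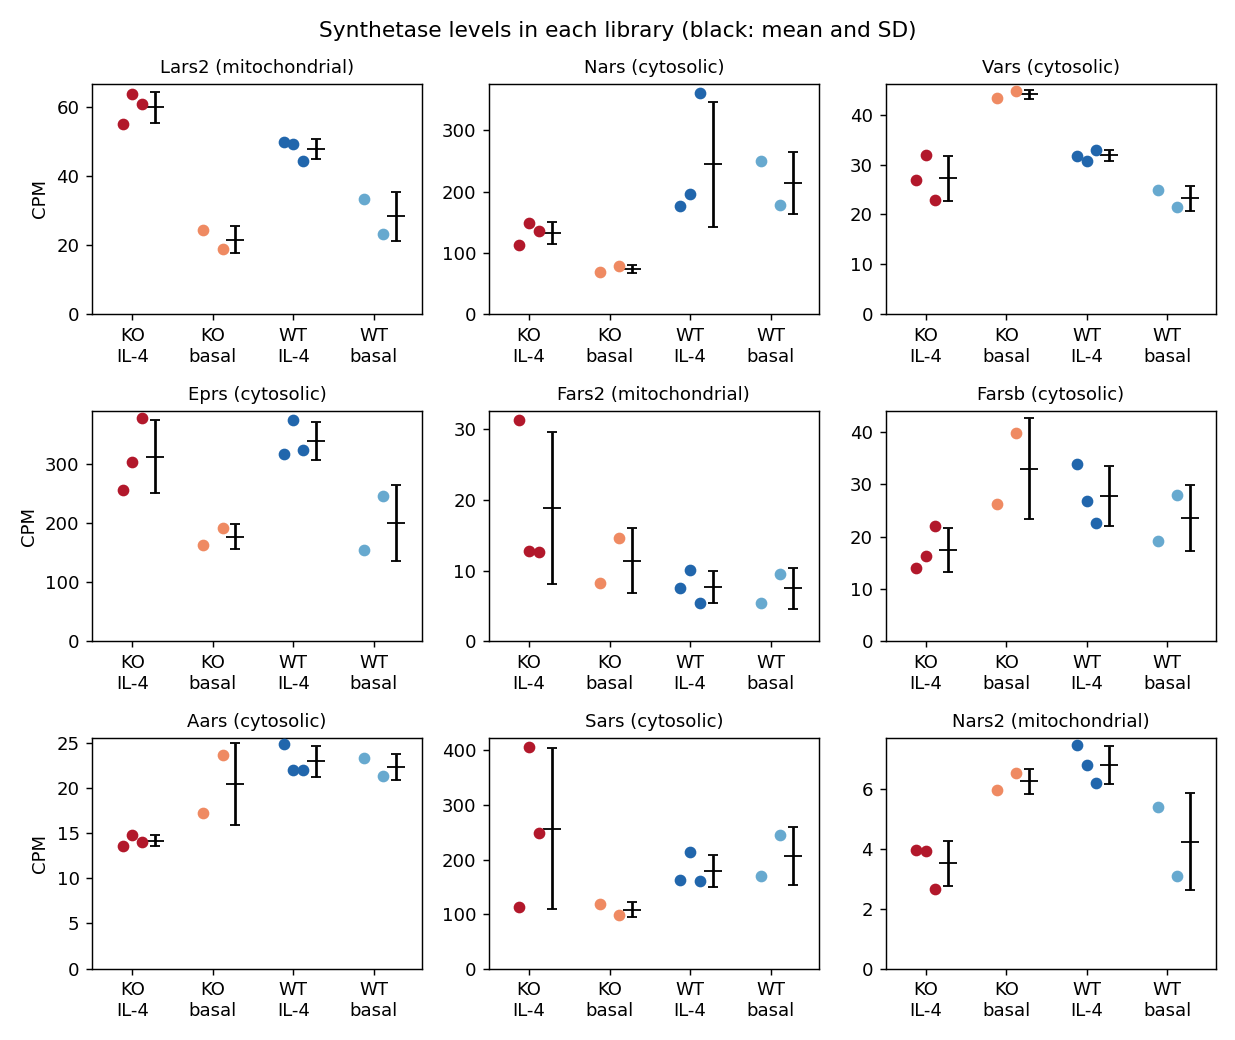
CPM in each library for the 8 genes named by rule and for Nars2; coloured points are libraries, grouped as KO IL-4, KO basal, WT IL-4 and WT basal, and black marks are the mean and SD. Lars2 is at 55.0 to 64.0 CPM in KO IL-4 libraries and at 18.9 to 24.3 CPM in KO basal libraries, and Nars is at 69.6 to 78.5 CPM in KO basal libraries and at 178 to 250 CPM in WT basal libraries.

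Over all 36 genes in the IL-4 comparison in KO, Lars2 included, 10 of 20 cytosolic enzymes and 13 of 16 mitochondrial ones had negative fold changes, with medians of log2 0.02 and -0.23, against 0.00 over all genes. An unadjusted p under 0.05 was reached by 9 of 36, against 22.7% of all genes, and the libraries did not overlap for 4 higher and 7 lower, against 18.4% and 21.2% of all genes. Eprs had 257, 304 and 379 CPM in KO IL-4 libraries, against 163 and 193 CPM in KO basal libraries (log2 0.82 ± 0.25, adjusted p = 0.0549). In WT it had 318, 376 and 325 CPM in IL-4 libraries, against 155 and 247 CPM in basal libraries (log2 0.76 ± 0.24, adjusted p = 0.0791). Every IL-4 library was above every basal one in both genotypes. Sars had 113, 407 and 249 CPM in KO IL-4 libraries, against 119 and 98.0 CPM in KO basal libraries, and those groups overlapped (log2 1.24 ± 0.41, adjusted p = 0.0824). Farsb was lower in all KO IL-4 libraries than in the KO basal ones, which had 26.2 and 39.7 CPM (log2 -0.92 ± 0.30, adjusted p = 0.0747).

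In WT macrophages IL-4 moved none of the 36 genes past the threshold in edgeR, against 6.06% of all genes tested. DESeq2 called 2 higher, Eprs (adjusted p = 0.0374) and Lars2 (0.0295), and 5 had an unadjusted p under 0.05 in edgeR, against 21.3% of all genes. The median was log2 0.18 over the cytosolic enzymes, 14 of 20 positive, and -0.14 over the mitochondrial ones, 7 of 16 positive, against 0.00 over all genes. IL-4 libraries did not overlap basal ones for 10 genes higher and 4 lower, against 20.8% and 19.5% of all genes. Markers moved with this comparison too, and their part in it was not tested. In WT IL-4 libraries, against WT basal libraries, 12 of 12 B cell markers were positive (4 called), 3 of 6 neutrophil markers were called higher, 3 of 8 mast cell markers were called lower, and the macrophage genes Fcgr1, Lyz2 and Icam2 were called lower. The monocyte and dendritic cell sum was 1190 to 1305 CPM in WT IL-4 libraries, against 173 to 308 CPM in WT basal libraries. Summed over the 20 cytosolic enzymes, the level was 1344 ± 164 CPM in KO IL-4 libraries (SD, n = 3), 1035 ± 57.0 CPM in KO basal libraries (n = 2), 1502 ± 76.1 CPM in WT IL-4 libraries (n = 3) and 1270 ± 161 CPM in WT basal libraries (n = 2). Over the 16 mitochondrial enzymes it was 243 ± 30.8 CPM in KO IL-4, 228 ± 0.185 CPM in KO basal, 226 ± 11.8 CPM in WT IL-4 and 223 ± 11.1 CPM in WT basal libraries. The cytosolic sums of all 3 IL-4 libraries were above those of both basal libraries in each genotype, and the mitochondrial sums overlapped. In KO the difference lay in few genes, singled out after their values were seen. Eprs, Sars and Nars together had 702 ± 195 CPM in KO IL-4 libraries (SD, n = 3), against 360 ± 12.6 CPM in KO basal libraries (n = 2), while the other 17 cytosolic enzymes together had 642 ± 31.8 CPM in KO IL-4 libraries, against 675 ± 44.4 CPM in KO basal libraries.

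**Figure D3:**
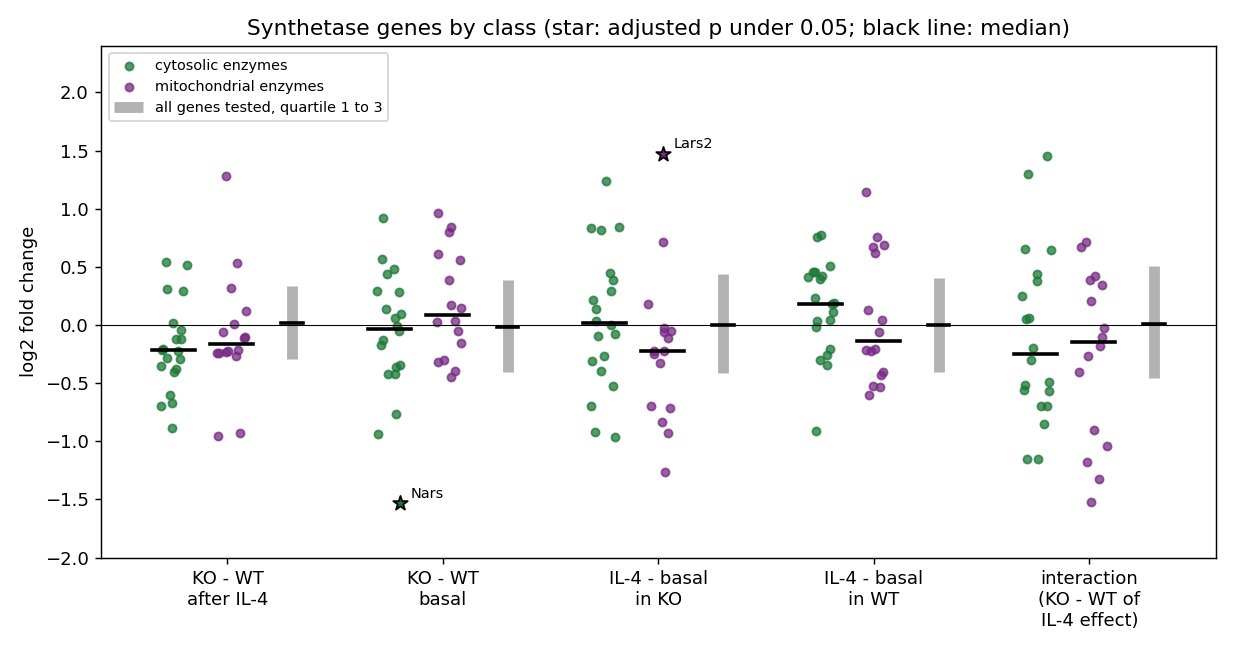
Log2 fold changes of the 36 genes in the 5 comparisons, with cytosolic enzymes in green, mitochondrial enzymes in purple, black lines at the medians, stars at genes past the threshold, and grey bars from quartile 1 to quartile 3 of all genes tested. The stars are Nars at -1.53 between basal genotypes and Lars2 at 1.47 for IL-4 in KO; the other points did not pass.

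The IL-4 effects in KO and WT were then set against each other. None of the 36 genes passed in edgeR, against 2.81% of all genes tested, while DESeq2 called 1 (Vars, adjusted p = 0.0244) and 5 had an unadjusted p under 0.05 in edgeR, against 15.3% of all genes. Vars had 26.8, 31.9 and 22.9 CPM in KO IL-4 libraries, against 43.4 and 44.7 CPM in KO basal libraries, and 31.8, 30.7 and 32.9 CPM in WT IL-4 libraries, against 24.9 and 21.5 CPM in WT basal libraries. Its IL-4 libraries were thus below the basal ones in KO and above them in WT, as in 4.57% of all genes (difference of IL-4 effects log2 -1.15 ± 0.34, adjusted p = 0.0899). Of the other members, only Nars2 did the same. Its KO libraries, and those of no other member, also lay on opposite sides of the WT ones in the treatments, as in 4.04% of all genes. They were below the WT ones after IL-4 and above them under basal conditions (difference log2 -1.52 ± 0.57, adjusted p = 0.197). B cell markers had differences of the same sign, with 10 of 12 called lower and a median of log2 -3.35. Also called lower were 3 of 6 neutrophil, 2 of 8 mast cell, 2 of 7 monocyte and dendritic cell and 1 of 7 T and NK cell markers. The part of all these markers in these values was not tested. The difference was log2 1.45 ± 0.55 for Sars (adjusted p = 0.218) and -1.15 ± 0.43 for Farsb (0.193). The medians were log2 -0.25 over the cytosolic enzymes and -0.14 over the mitochondrial ones, against 0.01 over all genes.

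The 8 enzymes of the multisynthetase complex (Eprs, Iars, Lars, Qars, Mars1, Kars, Rars and Dars), grouped after the values were seen, had 0 calls in edgeR in each of the 5 comparisons. Their median was log2 -0.17 between genotypes after IL-4, 0.04 under basal conditions, 0.02 for IL-4 in KO and 0.30 for IL-4 in WT. Unadjusted p was under 0.05 for 1, 0, 3 and 3 of the 8 in those comparisons and for 0 of 8 in the difference of IL-4 effects, against 14.4%, 17.7%, 22.7%, 21.3% and 15.3% of all genes, and DESeq2 called 1 for IL-4 in KO and 1 for IL-4 in WT. In the pairs for the same amino acid, the cytosolic and mitochondrial fold changes had the same sign in 12 of 17 between genotypes after IL-4, 6 of 17 under basal conditions, 6 of 17 for IL-4 in KO and 7 of 17 for IL-4 in WT.

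The partners of the synthetases and of tRNA handling had 0 of 15 genes called by edgeR in any comparison. Unadjusted p was under 0.05 for 3 between genotypes after IL-4, 2 under basal conditions, 1 for IL-4 in KO, 1 for IL-4 in WT and 2 for the difference of IL-4 effects, against 14.4%, 17.7%, 22.7%, 21.3% and 15.3% of all genes. DESeq2 called 1, lower in KO after IL-4. Between genotypes after IL-4, Xpot, the tRNA export receptor, was at log2 -0.89 ± 0.25 (adjusted p = 0.118) and the scaffold gene Eef1e1 at -1.08 ± 0.34 (0.151). Aarsd1, an editing protein that removes misattached amino acids, was at log2 1.58 ± 0.64 between basal genotypes (adjusted p = 0.198).

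Of the 27 tested genes of the ATF4 and amino-acid response, none was called between genotypes after IL-4 in edgeR or DESeq2, and 7 had an unadjusted p under 0.05, against 0.827% of all genes called and 14.4% at that p. Under basal conditions 10 had such a p, for IL-4 in KO 9, for IL-4 in WT 12 and for the difference of IL-4 effects 9. The shares of all genes were 17.7%, 22.7%, 21.3% and 15.3%. In those comparisons DESeq2 called 3, 4, 3 and 2 higher and 2 lower in each. For this list and those that follow, the shares of all genes called in edgeR were 4.14% under basal conditions, 7.6% for IL-4 in KO, 6.06% for IL-4 in WT and 2.81% for the difference of IL-4 effects. Under basal conditions 2 were higher in KO, the cationic amino acid transporter Slc7a1 (41.6 ± 9.39 CPM in KO basal, 17.4 ± 0.187 CPM in WT basal libraries, SD, n = 2 each, log2 1.25 ± 0.29, adjusted p = 0.0243) and the neutral amino acid transporter Slc1a5 (log2 1.22 ± 0.31, adjusted p = 0.0368), and 1 was lower, the transcription factor Ddit3 (log2 -1.12 ± 0.30, adjusted p = 0.0463). Ddit3 shares 68 exonic bases with Mars1 on the other strand. IL-4 in KO raised Slc7a11, the cystine transporter, and Psat1, a serine synthesis enzyme, and lowered Slc1a5 and Nupr1, a stress-response regulator. Slc7a11 had 19, 36 and 22 counts in KO IL-4 libraries, against 0 and 1 count in KO basal libraries. IL-4 in WT raised Slc7a1 and Slc7a11 and lowered Nupr1 and Ddit3. The difference of IL-4 effects was called for Slc7a1 (log2 -1.75 ± 0.37, adjusted p = 0.0172) and Slc1a5 (-1.83 ± 0.40, adjusted p = 0.0193). Atf4 itself did not pass in any comparison, at log2 -0.06 ± 0.21 between genotypes after IL-4 and -0.62 ± 0.26 under basal conditions (adjusted p = 0.925 and 0.215).

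Among 25 cytosolic translation factors, 0 were called between genotypes after IL-4 (5 with unadjusted p under 0.05, 0 in DESeq2, against 0.827% of all genes called and 14.4% at that p). Under basal conditions 7 had such a p, for IL-4 in KO 10, for IL-4 in WT 6 and for the difference of IL-4 effects 3. The shares of all genes at that p are given above. The elongation factor gene Eef1g was lower in KO under basal conditions (log2 -0.90 ± 0.24, adjusted p = 0.0463). IL-4 in KO raised the release factor Etf1 and the initiation factor Eif3c and lowered Eef1b2, and IL-4 in WT lowered Eef1g and Eef1b2. Of 15 mitochondrial factors, 0 were called between genotypes after IL-4 (2 with unadjusted p under 0.05, 0 in DESeq2). Under basal conditions 4 had such a p, for IL-4 in KO 3, for IL-4 in WT 3 and for the difference of IL-4 effects 5. For that difference DESeq2 called 3 higher and edgeR 0. Tfam, which packages mitochondrial DNA, was lower in KO under basal conditions (39.1 ± 3.85 CPM in KO basal, 112 ± 16.9 CPM in WT basal libraries, SD, n = 2 each, log2 -1.52 ± 0.38, adjusted p = 0.0373) and lower after IL-4 in WT (log2 -1.34 ± 0.34, adjusted p = 0.0289). IL-4 in KO raised the initiation factor Mtif3 and lowered Mtg1, a ribosome assembly GTPase. Of the 23 calls on these lists, 1 was kept in every fit that left out 1 library, that of Nupr1 for IL-4 in WT. Calls were lost for 16 of 23 without KO basal replicate 2, 13 without KO basal replicate 1, 12 without WT basal replicate 1, 11 without WT basal replicate 2, 12, 7 and 10 without WT IL-4 replicates 1, 2 and 3, and 4, 2 and 6 without KO IL-4 replicates 1, 2 and 3. The markers of other cell types given above moved with these comparisons as well, the difference of IL-4 effects included, and their part in the list calls was not tested.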

How the data were processed

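RNA-seq read counts per gene were used in the 10 libraries as the authors deposited them. Per the submitters' processing notes, STAR was the aligner, mm10 the build and HTSeq the counter; versions and strand setting are not given in the sources used here. The members and lists were chosen with earlier results of these data known. Identifiers were matched to GENCODE M21 (343 of 22165 had no symbol), and 7409 were at 0 in all libraries.

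Counts were scaled by TMM, filtered with filterByExpr (minimum count 10, minimum total 15) and fitted in edgeR 4.0.16 (R 4.3.3) by a robust quasi-likelihood model with 4 group means and 6 residual degrees of freedom (common biological coefficient of variation 28.4%). Tests were two-sided, with Benjamini-Hochberg adjustment over 11614 genes, and a gene was called at an adjusted p under 0.05. Fold changes are KO minus WT or IL-4 minus basal on the log2 scale, with ± for the SE. The code was tested on simulated data, with changes set in the KO IL-4 group for genes above the median level. Of 2-fold changes, 47% were recovered between genotypes after IL-4 and 32% for IL-4 in KO, against 99% of 4-fold changes in both. A gene that did not pass can therefore still differ 2-fold. DESeq2 1.42.0 and Python 3.11.15 were also used.

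Full statistics are given for the 2 called members and, up to 8 in all, the members with the smallest unadjusted p over the 5 comparisons; Lyz2 is given as a check of the genotype, a gene that the rule also lists is not reported here, and each list gives up to 4 called genes per comparison, or the 2 with the smallest p. Of the members, counts ran from 2 to 5657 per library, and 1 fell under 10 in some library. Members with exonic bases shared with another gene of the table numbered 9. Stretches shared with other transcripts were sought at 95% identity or more and at least 300 bases, a limit chosen after 75 bases had been tried. The length per gene, the multisynthetase group, the pairs and the displayed motif were also chosen after values were seen. No replicates were duplicates, as counts of any pair within a group differed beyond sampling noise. The labels do not tie replicate numbers to animals, and same-numbered libraries deviated together with correlations of -0.110 to 0.062, so they were not taken as pairs. Alternatives tried were other scalings, no filter, DESeq2, fits of the compared groups alone, a replicate block and leaving out each library.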

Additional observations from a re-analysis of the deposited data

Results flagged for a closer look

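Vars moved one way with IL-4 in KO libraries and the other way in WT libraries, with no overlap on either side, a pattern found in 4.57% of all genes tested. Its KO IL-4 libraries had 26.8, 31.9 and 22.9 CPM, against 43.4 and 44.7 CPM in KO basal libraries, and its WT IL-4 libraries had 31.8, 30.7 and 32.9 CPM, against 24.9 and 21.5 CPM in WT basal libraries. The difference of IL-4 effects was log2 -1.15 ± 0.34 (unadjusted p = 0.00389, adjusted p = 0.0899 in edgeR). Of the 36 genes, only Vars and Nars2 had such opposite IL-4 effects, a share near that of all genes.

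Nars2, the mitochondrial asparagine enzyme, showed the same kind of pattern, and its KO libraries also lay on opposite sides of the WT libraries in the treatments, as in 4.04% of all genes. It had 3.96, 3.92 and 2.64 CPM in KO IL-4 libraries, against 5.95 and 6.53 CPM in KO basal libraries, and 7.44, 6.78 and 6.18 CPM in WT IL-4 libraries, against 5.38 and 3.08 CPM in WT basal libraries. The difference of IL-4 effects was log2 -1.52 ± 0.57 (unadjusted p = 0.0170, adjusted p = 0.197 in edgeR), so neither gene passed the threshold. B cell markers moved the same way, at a sum of 683 to 754 CPM in KO IL-4 libraries, against 1688 to 2038 CPM in KO basal libraries, and 618 to 721 CPM in WT IL-4 libraries, against 258 to 436 CPM in WT basal libraries. The difference of IL-4 effects was called lower for 10 of 12 of them, and their part in the values of Vars and Nars2 was not tested.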

How the results depend on the processing

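In the order KO minus WT after IL-4, KO minus WT under basal conditions, IL-4 in KO, IL-4 in WT and difference of IL-4 effects, edgeR called 96, 481, 883, 704 and 326 genes, with no filter on low counts 505, 1034, 1423, 1209 and 819, and DESeq2 396, 895, 1371, 1185 and 623. Leaving out 1 library gave 21 to 129, 208 to 550, 327 to 931, 302 to 764 and 182 to 397. Members called were 2, 2, 5, 1 and 1 without the filter, against 0, 1, 1, 0 and 0. DESeq2 called 2 members under basal conditions, 4 for IL-4 in KO, 2 for IL-4 in WT and 1 for the difference, and library totals 2 under basal conditions, 2 for IL-4 in KO and 1 for IL-4 in WT. Without 1 library, members called were 0 to 1 under basal conditions, 0 to 4 for IL-4 in KO and 0 to 1 for the difference. The calls of Nars and Lars2 were kept under the other scalings, without the filter, in DESeq2, in fits of the compared groups alone and with the replicate block.

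With library totals the median of all genes moved to log2 0.13 under basal conditions, -0.10 for IL-4 in KO and -0.17 for the difference, and the share of called genes that were higher was 79.3%, 42.0%, 65.3% and 25.1% under basal conditions, for IL-4 in KO, for IL-4 in WT and for the difference, against 63.0%, 53.8%, 53.8% and 36.5%. Class medians then were log2 0.12 (cytosolic) and 0.25 (mitochondrial) under basal conditions, -0.091 (cytosolic) for IL-4 in KO, 0.26 (cytosolic) for IL-4 in WT, and -0.43 (cytosolic) and -0.32 (mitochondrial) for the difference, and the sign of the cytosolic median turned under basal conditions and for IL-4 in KO. Without 1 library, medians ranged over -0.31 to 0.076 (mitochondrial, KO minus WT after IL-4), -0.24 to 0.086 (cytosolic, basal), 0.079 to 0.30 (mitochondrial, basal), -0.079 to 0.087 (cytosolic, IL-4 in KO), -0.42 to -0.090 (mitochondrial, IL-4 in KO), 0.13 to 0.32 (cytosolic, IL-4 in WT), -0.18 to 0.035 (mitochondrial, IL-4 in WT), and -0.34 to -0.10 (cytosolic) and -0.30 to 0.0019 (mitochondrial) for the difference.

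Signs of uncalled genes turned for Aars (basal, 0.019 with library totals), Eprs (difference, -0.13 with library totals) and Nars (IL-4 in WT, -0.053 with the replicate block). Without 1 library they ranged over -0.46 to 0.20 for Eprs and -0.38 to 0.082 for Aars under basal conditions, -0.20 to 0.47 for Nars, -0.28 to 0.50 for Fars2, -0.0021 to 0.53 for Farsb, -0.028 to 0.11 for Aars and -0.44 to 0.080 for Sars for IL-4 in WT, and -0.32 to 0.33 for Eprs in the difference. Of 632 single-gene values under alternatives, 589 kept sign and side of the threshold. With the replicate block, 554 genes were called for IL-4 in KO, against 883, and both member calls were kept; 0 of 6 IL-4 libraries correlated best with their own number in the other genotype. With all exons in place of the principal transcript, chosen after the data were seen, median levels were 8.36 and 1.59 CPM per kb for cytosolic and mitochondrial enzymes, and 18 members shared a stretch of at least 75 bases with another gene, against 5 at 300 bases. The causes were not tested.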
